A study of Mus musculus with 36 samples.

Results

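The regions described here are the intergenic H3K9me3 bins of mouse liver that lie close to a gene. In each of the 6 tables used, a member is a bin on chromosomes 1 to 19 that was annotated as distal intergenic and lies at most 50 kb from the nearest transcription start site (TSS). There were 21898 members among 114317 autosomal bins (19.2%, exact 95% binomial interval 18.9 to 19.4) in control females and 29238 among 147360 (19.8%, 19.6 to 20.0) in control males. The tables that set maternal obesity (MO) against control held 26535 members of 133697 autosomal bins in females at 3 weeks (19.8%), 20696 of 109596 in females at 8 weeks (18.9%), 32133 of 158810 in males at 3 weeks (20.2%) and 18972 of 101386 in males at 8 weeks (18.7%). Members made up 50.4% of the autosomal intergenic bins in control females and 52.3% in control males. They were assigned to 9329 nearest genes in control females and to 10389 in control males, with a median of 2 members per gene.

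The livers came from male and female offspring of dams fed either a Western-style diet (MO) or standard chow (control) before mating and throughout pregnancy and lactation. All offspring came from a Reg3g fl/fl colony on a C57BL/6J background, with dams mated to wild-type males, and were Reg3g-fl/+ or Reg3g-fl/fl, so the controls carried the floxed allele too. Which offspring had which of these genotypes is not given in the sources used here. Livers were taken at 3 weeks, before weaning, or at 8 weeks, after 5 weeks on chow in both diet groups, with 4 ChIP libraries in each of 8 groups. Whole liver tissue was used, so fewer cells of a type and less of the mark per cell cannot be told apart. The level of a bin is the log2 CPM, a read count scaled by sequencing depth, that the authors averaged over the 8 libraries of a table. The libraries' own values were not analysed here, so neither the spread between animals nor the depth of each library is given, and every comparison below is a description without a test. Intervals are at 95%, come from counting or ranking bins, and do not cover the spread between animals or the dependence between neighbouring bins.

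H3K9me3 is trimethylation of lysine 9 on histone H3, a mark that is written by enzymes such as SETDB1 and SUV39H, bound by HP1 proteins and associated with silent chromatin. In mammalian cells it is known to cover transposable elements, clusters of zinc finger genes and gene clusters that are silent in a given tissue, such as the olfactory and vomeronasal receptors. Zinc finger proteins of the KRAB class bind transposable elements and recruit SETDB1 through KAP1. Cytochrome P450, sulfotransferase and major urinary protein genes form tandem clusters too, and several of them are known for expression that differs between male and female liver.

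The sequences of the highest members are printed first because they show how different the strongest bins are from each other. Each is the central part, up to 300 bases, of a bin on the plus strand of GRCm38 (mm10) from RefSeq, written 5′ to 3′, and capitals mark soft-masked repeat bases. The bins nearest to Sp3os and Aasdhppt are GC-rich and mostly unmasked, those nearest to Mrln and Ebag9 are mostly repeat sequence, and that nearest to Zfp958 is mixed.
Sp3os (chr2:73012738-73013037): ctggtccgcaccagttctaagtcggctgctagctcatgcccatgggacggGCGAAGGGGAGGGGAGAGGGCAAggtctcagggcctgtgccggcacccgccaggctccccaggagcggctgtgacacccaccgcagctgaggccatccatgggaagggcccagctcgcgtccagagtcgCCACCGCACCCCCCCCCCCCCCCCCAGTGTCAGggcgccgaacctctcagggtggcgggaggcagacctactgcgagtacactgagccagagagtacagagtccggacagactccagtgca
Aasdhppt (chr9:4260496-4260795): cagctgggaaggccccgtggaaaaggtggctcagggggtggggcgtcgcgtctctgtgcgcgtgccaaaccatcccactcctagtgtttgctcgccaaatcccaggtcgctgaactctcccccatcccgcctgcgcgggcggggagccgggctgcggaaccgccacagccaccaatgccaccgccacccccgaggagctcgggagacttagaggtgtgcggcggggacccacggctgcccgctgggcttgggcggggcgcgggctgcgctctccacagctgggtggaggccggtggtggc
Mrln (chr10:70222464-70222763): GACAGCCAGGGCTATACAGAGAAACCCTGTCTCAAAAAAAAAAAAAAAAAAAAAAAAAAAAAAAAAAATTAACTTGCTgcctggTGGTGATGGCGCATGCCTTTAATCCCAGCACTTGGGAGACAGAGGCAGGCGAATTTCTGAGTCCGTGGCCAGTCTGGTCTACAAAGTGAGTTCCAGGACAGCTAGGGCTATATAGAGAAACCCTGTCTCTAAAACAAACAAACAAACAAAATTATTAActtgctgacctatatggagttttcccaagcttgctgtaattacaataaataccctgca
Ebag9 (chr15:44659713-44660012): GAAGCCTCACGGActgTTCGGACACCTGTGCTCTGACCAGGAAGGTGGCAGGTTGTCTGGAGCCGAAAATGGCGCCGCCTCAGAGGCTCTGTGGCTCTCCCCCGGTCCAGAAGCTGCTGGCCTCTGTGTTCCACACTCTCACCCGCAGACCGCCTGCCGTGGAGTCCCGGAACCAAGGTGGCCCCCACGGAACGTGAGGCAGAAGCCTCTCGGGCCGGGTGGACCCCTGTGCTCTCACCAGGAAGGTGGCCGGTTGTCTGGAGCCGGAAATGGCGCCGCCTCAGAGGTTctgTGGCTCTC
Zfp958 (chr8:4656666-4656847): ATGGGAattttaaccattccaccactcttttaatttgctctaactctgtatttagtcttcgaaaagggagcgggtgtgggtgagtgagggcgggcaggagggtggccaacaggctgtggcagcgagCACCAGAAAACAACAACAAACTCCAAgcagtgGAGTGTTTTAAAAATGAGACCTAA

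The next sequences carry the age differences that stand at either end of the bins named below, among members with a mean level above the median. The bins nearest to 4930423M02Rik and Zfp1006 had the highest differences in females and males, and are 100% and 93.7% masked over the bases shown. The bins nearest to Icosl and Atp6v1g3 had the lowest differences in females and males, and are 20.0% and 92.7% masked.
4930423M02Rik (chr4:5609767-5610066): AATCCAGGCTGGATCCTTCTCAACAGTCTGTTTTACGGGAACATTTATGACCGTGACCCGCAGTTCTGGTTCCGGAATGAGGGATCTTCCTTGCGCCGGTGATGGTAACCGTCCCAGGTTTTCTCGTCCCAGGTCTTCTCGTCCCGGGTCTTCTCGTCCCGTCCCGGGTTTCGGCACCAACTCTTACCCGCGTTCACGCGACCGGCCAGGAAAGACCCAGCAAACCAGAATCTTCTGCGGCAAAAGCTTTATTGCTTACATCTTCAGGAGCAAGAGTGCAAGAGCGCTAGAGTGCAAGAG
Zfp1006 (chr8:129211361-129211660): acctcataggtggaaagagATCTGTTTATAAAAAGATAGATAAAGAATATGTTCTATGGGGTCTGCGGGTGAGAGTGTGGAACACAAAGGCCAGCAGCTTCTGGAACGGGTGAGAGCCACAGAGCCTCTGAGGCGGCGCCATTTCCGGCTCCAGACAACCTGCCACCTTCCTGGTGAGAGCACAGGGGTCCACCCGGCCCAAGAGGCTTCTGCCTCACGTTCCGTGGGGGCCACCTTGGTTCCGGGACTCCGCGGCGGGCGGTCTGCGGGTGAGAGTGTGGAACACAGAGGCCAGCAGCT
Icosl (chr10:78108982-78109281): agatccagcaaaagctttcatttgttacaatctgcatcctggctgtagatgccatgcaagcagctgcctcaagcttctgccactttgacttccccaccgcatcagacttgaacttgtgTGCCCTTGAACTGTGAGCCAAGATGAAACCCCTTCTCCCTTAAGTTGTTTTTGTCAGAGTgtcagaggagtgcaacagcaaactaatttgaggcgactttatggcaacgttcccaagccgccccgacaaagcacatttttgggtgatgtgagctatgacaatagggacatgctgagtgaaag
Atp6v1g3 (chr1:138231769-138232068): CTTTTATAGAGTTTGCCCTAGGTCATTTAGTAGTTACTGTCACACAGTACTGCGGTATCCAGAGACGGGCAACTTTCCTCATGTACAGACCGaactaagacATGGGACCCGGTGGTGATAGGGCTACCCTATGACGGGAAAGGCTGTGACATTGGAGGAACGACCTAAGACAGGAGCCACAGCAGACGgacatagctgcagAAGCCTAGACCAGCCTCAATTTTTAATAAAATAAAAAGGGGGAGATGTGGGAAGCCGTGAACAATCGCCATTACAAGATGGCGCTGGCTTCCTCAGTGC

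The label was checked against the reference annotation. Only 0.206% to 0.233% of the members of a table overlapped a gene of the GENCODE M21 annotation, between 1 and 2 members per table overlapped a protein-coding gene, and at least 99.98% lay within 50 kb of a transcript start there. Between 7.51% and 7.73% lay within 3 kb of a transcript start in that annotation, although the files placed the members at 3 to 50 kb. In control females, bins just inside the limit (45 to 50 kb) numbered 1120 with a median level of 2.64 log2 CPM, and bins just outside it (50 to 55 kb) numbered 1002 with a median of 2.66. In control males the corresponding values were 1483 bins at 2.10 and 1336 bins at 2.11. The nearest gene was protein-coding for 84.0% of members in each of these tables (86.1% of the other autosomal bins).

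The levels of members lay close to those of the other autosomal bins. Their median level was 2.64 log2 CPM (interval 2.63 to 2.64) in control females against 2.64 (2.64 to 2.65) for the other bins, and 2.09 (2.08 to 2.09) against 2.10 (2.10 to 2.11) in control males. In the 4 tables of MO and control, the medians of members and other bins were 2.40 and 2.40 in females at 3 weeks, 2.61 and 2.62 in females at 8 weeks, 2.03 and 2.03 in males at 3 weeks, and 2.73 and 2.74 in males at 8 weeks. Each table was normalized separately, so these levels are compared only within a table. Within each of the 6 tables the members stood between the outer promoter (1 to 3 kb from a TSS) and intergenic bins farther away. In control females the medians were 2.59 in the outer promoter, 2.68 in intergenic bins at 50 to 200 kb and 2.79 beyond 200 kb, and in control males 2.05, 2.13 and 2.26. The share of bins in the highest 10% of their table by level was 9.81% to 11.1% among members, 4.26% to 5.95% in the outer promoter, 13.7% to 14.8% at 50 to 200 kb and 20.5% to 23.9% beyond 200 kb.

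**Figure D1:**
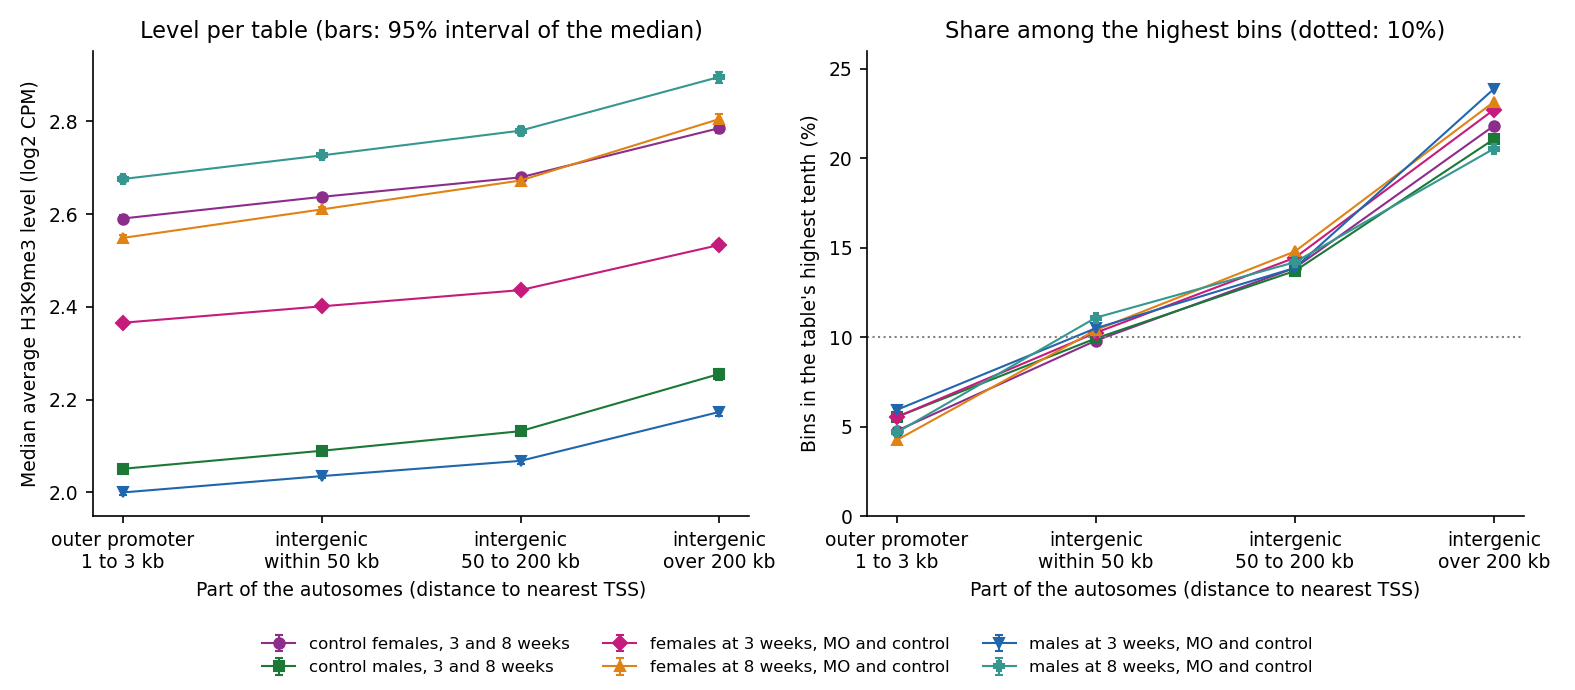
The left panel plots the median average H3K9me3 level (log2 CPM, with its 95% interval over bins) and the right panel the percentage of bins in the highest 10% of the table, for 4 parts of the autosomes ordered by distance to the nearest TSS, with 1 line per table. In each table the intergenic bins within 50 kb sit above the outer promoter and below intergenic bins farther away, with 9.81% to 11.1% of them in the highest 10%.

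The level of members was nearly the same at all distances within the 50 kb. Members per kb of distance numbered 784 at 3 to 10 kb and 244.2 at 40 to 50 kb in control females, and 1057 and 319.8 in control males. The median level was 2.62 (2.61 to 2.63) and 2.64 (2.63 to 2.65) in these bands in females, and 2.07 (2.07 to 2.08) and 2.10 (2.09 to 2.12) in males. The widest gap between these bands was in males at 8 weeks, with 2.71 (2.70 to 2.72) against 2.76 (2.74 to 2.78). Upstream of the nearest TSS lay 61.5% (60.8 to 62.1) of members in control females and 61.8% (61.3 to 62.4) in control males. The rule uses the distance and leaves out gene bodies, which lie downstream of a TSS, and the intergenic sequence available at each distance and side was not measured, so nothing about the mark is read from these numbers of members. The median level was 2.64 on both sides in females and 2.09 on both sides in males. Upstream members came from shorter peaks, with a median of 735 bp against 825 bp downstream in control females and 720 bp against 801 bp in control males.

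Members came from shorter peaks than the other bins. The median peak length was 770 bp against 856 bp in control females and 748 bp against 823 bp in control males. Peaks over 5 kb made up 3.27% of members and 6.07% of the other bins in females, and 2.63% and 4.83% in males. Peaks of a single bin (not cut further by the authors) made up 35.0% and 32.6% in females, and 36.9% and 34.5% in males. Among the parts compared, single-bin peaks were least frequent in the outer promoter (24.6% in females) and most frequent beyond 200 kb (56.8%). The distance to the nearest other listed peak had a median of 3.57 kb for members and 3.74 kb for the other bins in control females, and 8.24% of members against 13.8% of other bins had no other listed peak within 20 kb. Gaps of at most 2 kb were about as frequent, at 32.3% of members and 33.7% of other bins. In control females the share of bins that were members ranged from 14.7% on chromosome 8 to 22.0% on chromosome 6, and their density from 5.88 per Mb on chromosome 14 to 13.2 per Mb on chromosome 11. The genes with most members were Rybp, a component of Polycomb repressive complex 1 (19 members in control females), and Cplx2, a complexin of synaptic vesicle release (25 members in control males).

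Members held more repeat sequence than the other bins. The median masked share of a member was 20.8% (20.2 to 21.4) in control females and 20.4% (19.8 to 20.8) in control males, against 10.4% (10.2 to 10.6) and 10.7% (10.6 to 10.8) in the other bins. In control females the share was 8.78% in the outer promoter, 26.5% at 50 to 200 kb and 68.9% beyond 200 kb, so that the members again stood between promoter and remote intergenic sequence. At least 50% of the bases were masked in 30.0% of members and 19.8% of the other bins of control females. Members with no masked base made up 12.1% against 20.5%. The GC content was slightly lower in members, with a median of 53.6% against 54.5% in control females and 53.3% against 54.1% in control males, and the CpG count was 1.80 against 2.00 per 100 bases in females and 1.65 against 1.93 in males.

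The repeat share of members differed most at the top of the level range. When the members of control females were ordered by level and cut into 10 groups of equal number, the median masked share was 16.0% in the lowest group, 16.4% in group 6, 36.3% in group 9 and 74.9% in the highest group. The highest group was 72.1% masked in control males, 63.5% and 81.0% in females at 3 and 8 weeks, and 62.2% and 81.2% in males at 3 and 8 weeks. The other autosomal bins cut in the same way were 33.9% to 68.5% masked in their highest group and 9.58% to 11.4% in their lowest. The files do not give levels per repeat family, and how reads with several mapping positions were treated is not given in the sources used here; the part of such reads in these levels was not tested.

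**Figure D2:**
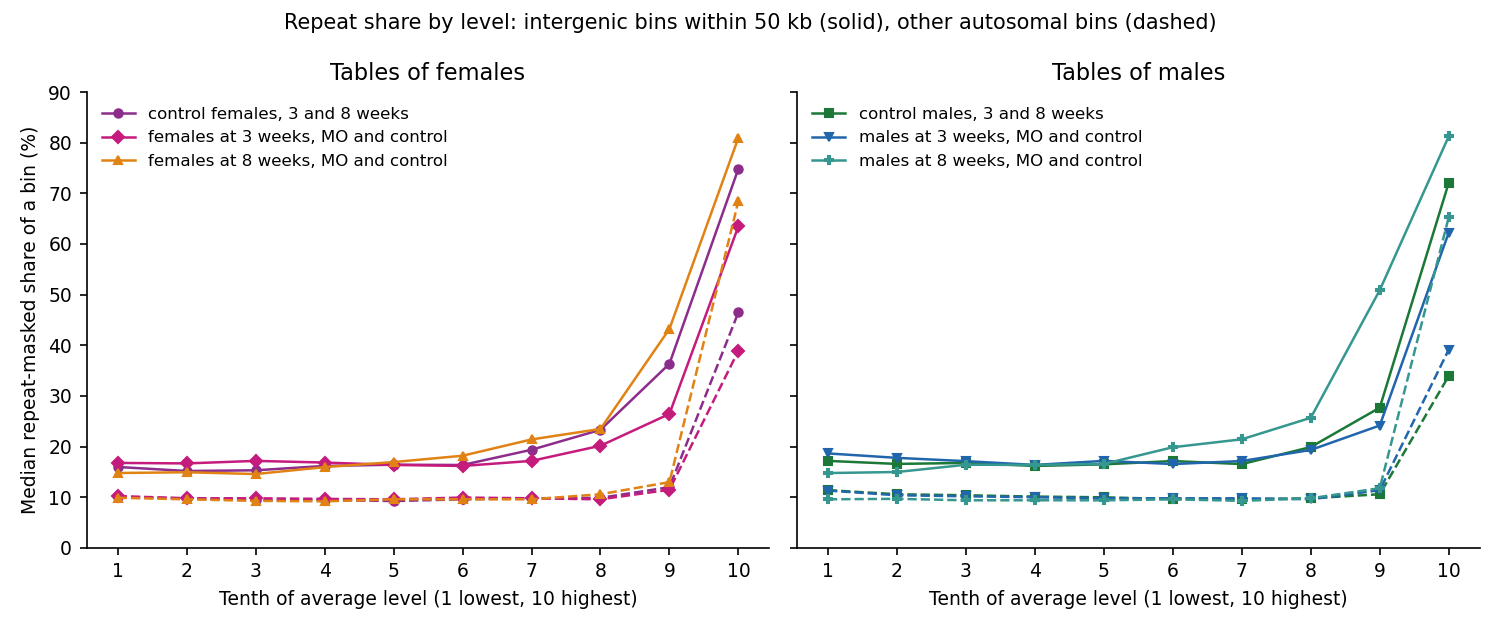
Median share of repeat-masked bases per bin (%) is plotted against the group of average level (10 groups of equal number, 1 lowest) in the tables of females (left) and males (right), with solid lines for intergenic bins within 50 kb and dashed lines for all other autosomal bins. The solid lines lie near 16% over the lower groups and reach 62.2% to 81.2% in the highest group.

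The highest members stood far above the rest, since 90% of members in control females lay below 3.06 log2 CPM. In females they were nearest to Aasdhppt, which encodes an enzyme that attaches phosphopantetheine to carrier proteins, and to Zfp958, a zinc finger gene. The bin at Aasdhppt (chr9:4260019-4260519, 48.9 kb downstream of the TSS) had 5.57 log2 CPM in control females and 5.53 in females at 8 weeks. The same place was covered by bins at 2.99 in control males and 2.45 in males at 3 weeks, while a partly overlapping bin (chr9:4260396-4260896, the bin whose central bases are printed above) had 6.03 in males at 8 weeks, where the female bin covering it at 3 weeks had 3.36. Each table lists 1 bin per peak by a rule not given in the sources used here, so neighbouring bins of a single peak can stand for it in different tables. If the bin was chosen by a table's own comparison, the levels, the recurrence and the paired differences given here carry that choice. The bin at Zfp958 (chr8:4656666-4656847, 182 bp) had 5.46, 4.96 and 5.61 in the 3 tables of females, and an overlapping bin of the male peak (chr8:4656300-4656800) had 4.92, 4.32 and 5.56 in those of males.

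In males members among the highest were nearest to Sp3os, a transcript on the opposite strand of the Sp3 transcription factor gene, and to Mrln, which encodes the muscle micropeptide myoregulin. The bin at Sp3os (chr2:73012734-73013042, 25.5 kb downstream) had 5.96 in control males, 5.45 in males at 3 weeks and 7.14 in males at 8 weeks. The bin at Mrln (chr10:70222364-70222864, 5.47 kb downstream) had 5.44, 5.24 and 6.00. Neither place was covered by a bin of at least 50% overlap in the tables of females. Among the other highest members were the bin at the predicted gene Gm17644 (chr1:12657442-12657867, unmasked), with 4.36 in control females and an overlapping bin at 3.99 in control males, and a bin near a gene without a symbol in the files (chr5:104583958-104584458), with 4.91 in control females, 5.39 in females at 8 weeks and 4.87 in control males.

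The families of the nearest genes were then compared. The intergenic sequence available near the genes of each family was not measured, so nothing about the mark is read from the numbers and shares of members below. Of the 17 families fixed by symbol, vomeronasal type 1 receptor, Mup, olfactory receptor and Ugt genes had the largest part of their bins in intergenic sequence near a gene. Defensin genes, which encode antimicrobial peptides, came next, with 36 members at 28 genes (47.4% of the family's bins in control females and 47.1% in control males). In control females, 225 members lay nearest to 109 vomeronasal type 1 receptor genes (1.03% of members, 0.0876% of the other bins), and these were 73.5% of all bins of that family. Olfactory receptor genes had 723 members at 445 genes (3.30% against 0.348%), which were 69.2% of the family's bins. Vomeronasal type 2 receptors had 157 members at 71 genes (0.717% against 0.224%). Major urinary protein (Mup) genes, which encode pheromone carriers secreted by the liver, had 48 members at 17 genes (0.219% against 0.0227%). Cytochrome P450 genes had 153 members at 63 genes (0.699% against 0.239%). Zinc finger genes had 526 members at 214 genes (2.40% against 1.82%). Protocadherin genes differed from these, with 9 members (0.0411%) against 0.238% of the other bins. Members near Slc transporters (1.83% against 1.85%) and microRNA genes (1.93% against 2.23%) were about as frequent as other bins. By the share of a family's bins, vomeronasal type 1 receptors, Mup genes, olfactory receptors and Ugt genes stood first in that order in the control tables of both sexes. In control males there were 826 members at olfactory receptors (2.83% against 0.329% of the other bins) and 250 at vomeronasal type 1 receptors (0.855% against 0.0635%).

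Members near these clusters also had higher levels and more repeat sequence than members in general. In control females the median level was 2.86 log2 CPM near olfactory receptors, 2.87 near vomeronasal type 1 and 2.89 near vomeronasal type 2 receptors, 3.05 near Mup genes, 3.02 near Ugt genes (14 members), 2.83 near Sult genes (27 members) and 2.78 near cytochrome P450 genes, against 2.64 for all members. In control males the corresponding medians were 2.33, 2.35, 2.36, 2.57, 2.58, 2.32 and 2.36, against 2.09. Members near zinc finger genes had 2.69 in females and 2.21 in males. Members near lineage transcription factors had 2.60 in females and 2.09 in males, at or close to the median of all members. Members near Hox genes were few (21 and 27) and had 2.60 in control females, below that median, but 2.18 in control males and 2.25 in males at 3 weeks, above the medians of 2.09 and 2.03. The median masked share was 78.2% near olfactory receptors, 73.5% near Mup genes and 72.7% near cytochrome P450 genes, but 10.4% near lineage factors (control females). Members of a family share gene clusters and similar sequence, and reads from near-identical copies may have been split between them, so they are not independent.

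**Figure D3:**
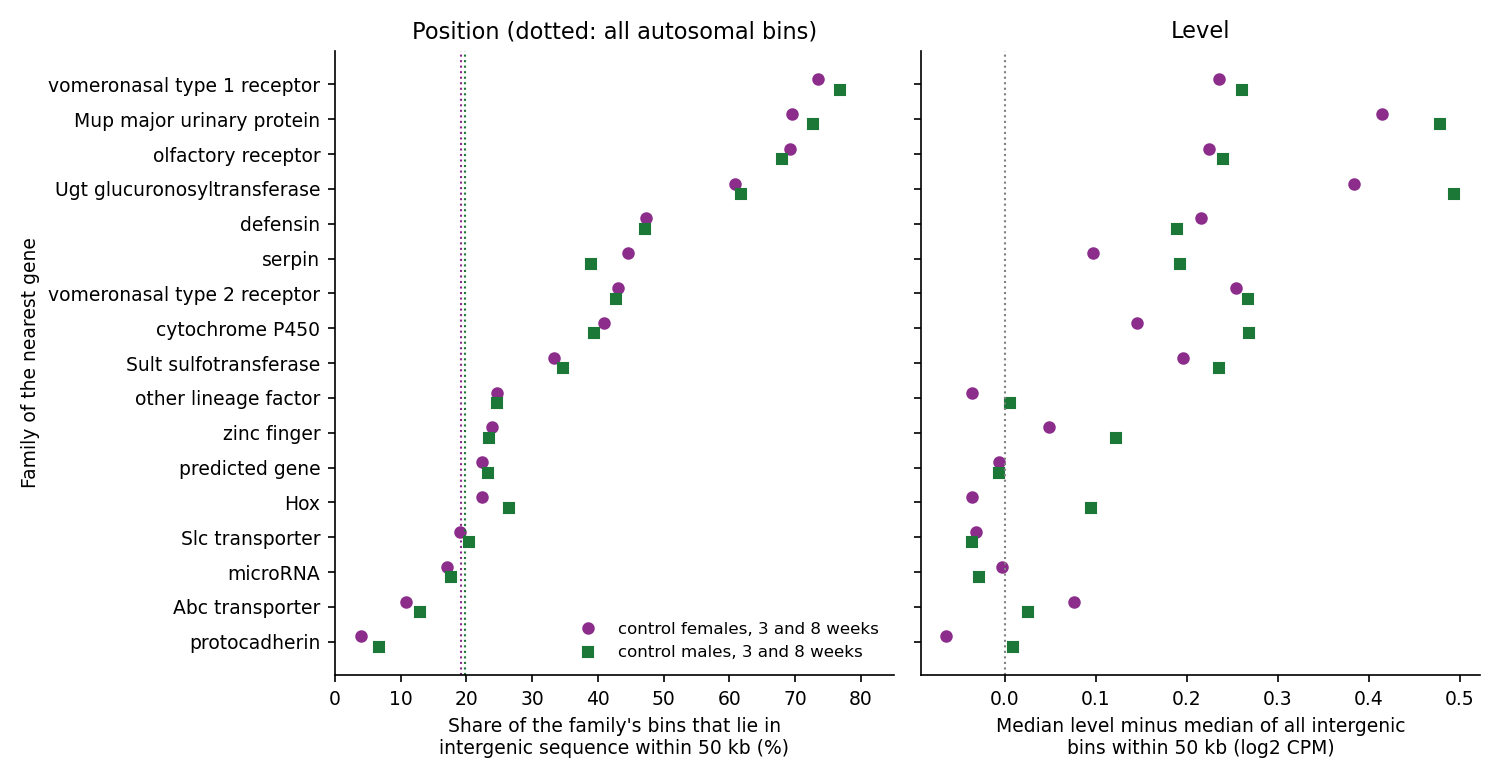
For each family of the nearest gene, the left panel plots the percentage of the family's autosomal bins that are intergenic and within 50 kb of a TSS, with the percentage over all autosomal bins as dotted lines, and the right panel plots the median level of those bins minus the median of all intergenic bins within 50 kb (log2 CPM), in control females and control males. Vomeronasal type 1 receptor, Mup, olfactory receptor and Ugt genes have the largest percentages, from 60.9% to 76.9%, and protocadherins the smallest, at 3.93% and 6.67%.

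Within the families the highest bins were spread over known clusters. Vmn1r230 had the highest vomeronasal type 1 bin (chr17:20865254-20865706, 98.7% masked), with 4.27, 3.53 and 4.58 log2 CPM in control females and in females at 3 and 8 weeks, and overlapping male bins at 4.35, 3.75 and 5.17. Cyp2c67, a cytochrome P450 gene, had a bin at chr19:39656851-39657351 with 4.28, 3.78 and 4.36 in the tables of females and overlapping bins at 3.91, 3.64 and 4.47 in those of males. Sult3a1, a sulfotransferase gene known for higher expression in female liver, had a bin at chr10:33835772-33836272 with 3.98, 3.00 and 4.84 in the tables of males and overlapping bins at 4.07, 3.28 and 4.45 in those of females. Slco1b2, an uptake transporter of hepatocytes, had a bin at chr6:141598944-141599444 with 3.97, 3.81 and 4.27 in females and overlapping bins at 3.61, 3.49 and 4.25 in males. Mup2 (chr4:60632401-60632901) had 4.29 in control females and 3.86 in females at 3 weeks, with overlapping bins at 3.85 in control males and 3.58 in males at 3 weeks. Foxa1, a pioneer transcription factor of liver development, had the highest bin near a lineage factor in control females and in females at 3 weeks (chr12:57538711-57539194, unmasked), with 3.52 and 3.20. It had 3.21 in females at 8 weeks, where a bin near Foxk2, another forkhead factor, had 4.16, and an overlapping bin had 1.90 in males at 3 weeks.

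Members recurred across tables of the same sex. The control libraries of a sex are shared between its tables and the authors merged peaks within a sex, so part of this recurrence is built in. In females, 30053 peaks with a member were listed in any of the 3 tables and 16319 (54.3%) in all 3. In males, 34763 were listed in any table and 17286 (49.7%) in all 3. Of those in all 3 tables, 1752 (10.7%) of the female and 2506 (14.5%) of the male peaks overlapped no peak listed for the other sex. These peaks were mostly short, with 72.3% and 66.8% single-bin peaks against 30.0% and 28.5% among peaks that overlapped one of the other sex, and their median level was lower (2.55 against 2.63 in females, 2.30 against 2.39 in males). A sequence match to the X or Y chromosome (at least 90% identity over at least 50% of the bin) was less frequent among them: 1.54% (1.02 to 2.23) against 5.75% (5.38 to 6.14) matched the X in females, and 1.44% (1.01 to 1.98) against 2.89% (2.62 to 3.17) matched the Y in males. Peaks of the 2 sexes were merged separately by the authors, so a peak without an overlap is unlisted in the other sex and not shown to be unmarked.

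The highest of these peaks by mean level over the 3 tables are given in order, a choice made after their values were seen. Among those listed for males, the first was the bin at Sp3os and the next the bin at Ebag9 (chr15:44659632-44660094, 94.2% masked, with a match to the X chromosome; 4.81, 4.24 and 5.67 log2 CPM in control males and in males at 3 and 8 weeks). A bin at Mup18 (chr4:61685436-61685936, 100% masked, with a match to the Y chromosome) had 3.05, 2.57 and 4.08, and a bin at Pla2r1, a phospholipase A2 receptor (chr2:60573578-60574005), had 3.24, 2.40 and 4.02. Bins at 3 cytochrome P450 genes followed. Cyp3a41b (chr5:145611693-145612032) had 3.02, 2.94 and 3.54, Cyp3a16 (chr5:145474068-145474506) had 2.93, 2.91 and 3.65, and Cyp2c40 (chr19:39834682-39835114) had 2.92, 2.95 and 3.22. These P450 genes are known for higher expression in female liver, and Mup genes for higher expression in male liver, so the bins listed for males lay near genes of both kinds. Among peaks listed for females, the bin at 1700026F02Rik (chr8:71131720-71131993) had 3.54, 3.71 and 3.41, that at Vmn1r73 (chr7:11786454-11786898) had 3.27, 2.93 and 3.39, and that at Hrh1, a histamine receptor (chr6:114490306-114490711), had 3.11, 3.10 and 3.08. The bin at Slco1a1 (chr6:141956707-141957085), a transporter gene known for higher expression in male liver, came next with 3.10, 3.01 and 3.08. By family, 21 of 144 cytochrome P450 peaks (14.6%) were listed for males only, close to 14.5% of all, and 8 of 127 (6.30%) for females only, against 10.7% of all.

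The next comparison asked how the mark at these bins differed between 3 and 8 weeks. For each sex, the average level in the table of 3 weeks was subtracted from that of 8 weeks at bins with the same coordinates in both, and the median over all autosomal bins (0.217 in females, 0.631 in males) was removed because the tables were normalized separately. No library enters both averages, and each average holds MO and control livers. The paper describes the mice of 8 weeks as additional cohorts, so age and cohort cannot be told apart. Of 14179 members in females, 3 were higher by over 1 log2 unit at 8 weeks and 0 were lower by as much, where 0.0292% of all 71972 bins were higher and 0.00834% lower. Of 13528 members in males, 44 were higher and 1 was lower, where 0.22% and 0.0189% of all 68657 bins were. These counts rest on the centring: without it 44 members of females and 1392 of males were higher, and 0 of males lower. On single-bin peaks 0 members of females and 10 of males were higher, and 0 of males lower. At a limit of 0.5, 477 members of females were higher (3.36%; 3.47% of all bins) and 440 lower (3.10%; 2.78% of all bins). In males 715 were higher (5.29%; 5.43% of all bins) and 555 lower (4.10%; 3.47% of all bins). These shares were near those of all bins. The centred difference over members had a median of -0.01 in females (5th to 95th percentile -0.44 to 0.45) and -0.02 in males (-0.47 to 0.51).

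The age difference followed the repeat share of the member. Members over 90% masked had a median difference of 0.16 (0.14 to 0.18) in females and 0.17 (0.15 to 0.19) in males, and members under 10% masked had -0.06 (-0.07 to -0.05) and -0.07 (-0.08 to -0.06). Beyond 0.5, 192 of 1618 members over 90% masked were higher and 36 lower in females, and 268 of 1681 were higher and 50 lower in males. Among members under 10% masked, 44 of 4387 were higher and 132 lower in females, and 66 of 4040 were higher and 171 lower in males. Of the other autosomal bins over 90% masked, 601 of 5051 were higher and 75 lower in females, and 814 of 5353 higher and 97 lower in males. Of the other bins under 10% masked, 537 of 26236 were higher and 744 lower in females, and 1089 of 24851 higher and 749 lower in males. The other autosomal bins over 90% masked had median differences of 0.19 in females and 0.18 in males, close to the members. The other bins under 10% masked had -0.02 in females and -0.0001 in males, nearer to 0 than the members; the difference between members and other bins was not tested. By position, the medians were -0.07 and -0.06 (females and males) in the outer promoter, 0.03 and 0.02 in intergenic bins at 50 to 200 kb, and 0.08 and 0.04 beyond 200 kb. The difference also went with the mean level of a member (rank correlation rho 0.30 for females and 0.22 for males over members, which are not independent and share libraries). The 10th to 90th percentile of member levels was 2.31 to 3.13 at 8 weeks against 2.14 to 2.78 at 3 weeks in females. In males it was 2.43 to 3.30 against 1.74 to 2.45. Centring does not remove this wider range at 8 weeks, and its part in the age difference was not tested. Among members with a level above the median of the pairs, those over 90% masked had 0.22 and 0.21, and those under 10% masked -0.01 and -0.03.

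**Figure D4:**
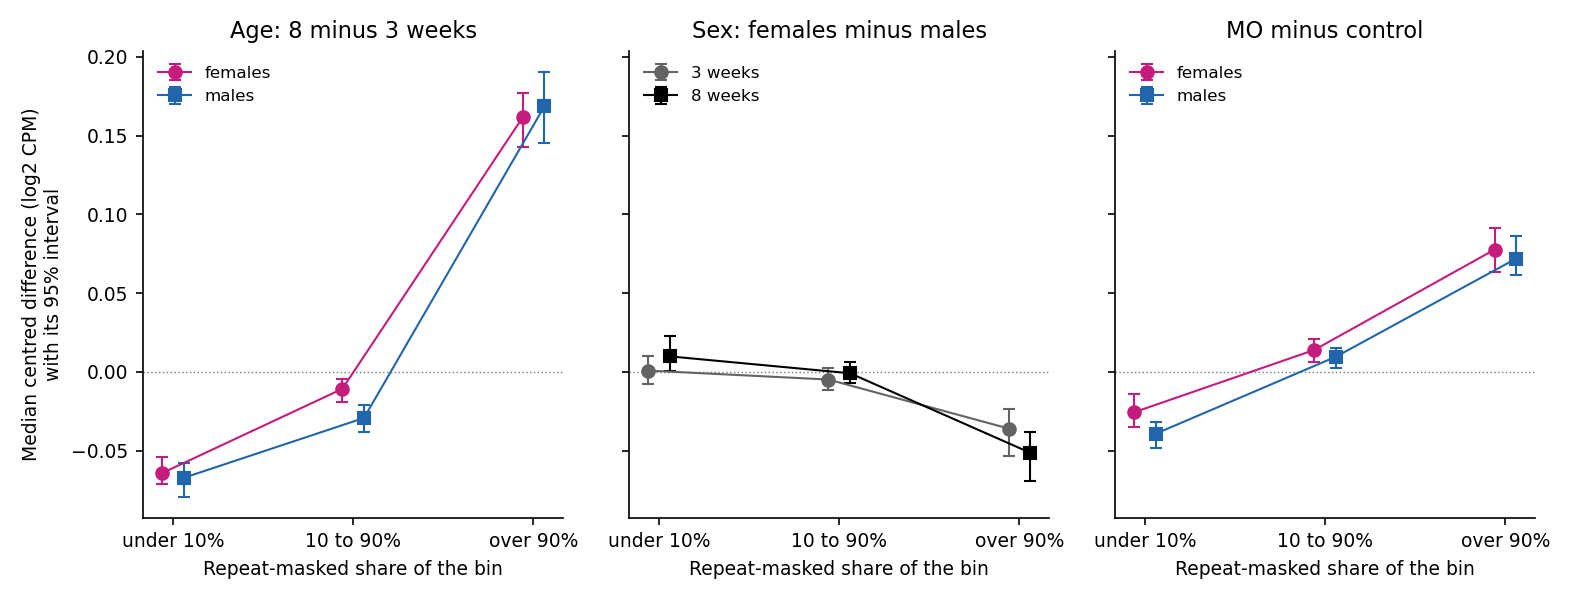
Median centred difference in level (log2 CPM, with its 95% interval over bins) of intergenic bins within 50 kb is plotted for bins under 10%, 10 to 90% and over 90% repeat-masked, for age (left, by sex), sex (centre, by age) and MO (right, by sex). The age difference is -0.06 and -0.07 in the bins with fewest repeats and 0.16 and 0.17 in those with most, and the differences by sex lie between -0.05 and 0.01.

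Near receptor and zinc finger genes more members were higher than lower at 8 weeks. Over all bins 3.47% were higher and 2.78% lower by over 0.5 in females, and 5.43% and 3.47% in males. Members near olfactory, vomeronasal type 1 and cytochrome P450 genes were also 78.2%, 72.5% and 72.7% masked by the median in control females, those near zinc finger genes 43.5%, and all members 20.8%; the part of repeat share in the values of these families was not tested. Near olfactory receptors 45 of 592 members were higher by over 0.5 and 11 lower in females (median 0.12, 0.09 to 0.16), and 69 of 575 were higher and 18 lower in males (median 0.09, 0.06 to 0.12). Near zinc finger genes 40 of 350 were higher and 9 lower in females (median 0.08, 0.03 to 0.12), and 45 of 348 were higher and 15 lower in males (median 0.02, -0.03 to 0.07). Near vomeronasal type 1 receptors 17 of 170 and 22 of 175 were higher, and 7 and 5 lower. Near cytochrome P450 genes 8 of 107 members were higher and 3 lower in females, and 18 of 122 higher and 7 lower in males. Members near lineage factors (median -0.05 and -0.03) and Slc transporters (-0.05 and -0.03) lay on the other side of 0 in both sexes.

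Among members with a mean level above the median of the pairs, the highest age differences in females were at 4930423M02Rik (chr4:5609667-5610167, 100% masked; 1.13), Zfp1006 (chr8:129211303-129211803, 80.8% masked; 1.04) and Or6c35, an olfactory receptor (chr10:129340683-129341183, 100% masked; 1.01). The bin at Zfp1006 had 3.50 log2 CPM in females at 3 weeks and 4.75 at 8 weeks before centring. In males the highest were at Zfp1006 (chr8:129211261-129211761; 1.48, from 3.01 to 5.12), Ppp1r3a, a glycogen-targeting subunit of protein phosphatase 1 (chr6:14790852-14791352; 1.33, from 2.63 to 4.59), and Lrif1, a nuclear factor that binds HP1 (chr3:106747169-106747669, 100% masked; 1.33, from 2.18 to 4.13). The lowest in females were at Icosl, the ligand of the T cell costimulator ICOS (chr10:78108889-78109375; -0.89, from 3.12 to 2.45), Iqcf6 (chr9:106607053-106607553; -0.85) and Lyrm9 (chr11:78872063-78872551; -0.84). In males they were at Atp6v1g3, a subunit of the vacuolar proton pump (chr1:138231669-138232169; -1.005, from 2.95 to 2.57), Znhit6 (chr3:145566887-145567387; -0.97) and Rack1, a ribosome-associated scaffold protein (chr11:48773540-48773965; -0.94).

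The age differences of females and males, which share no libraries, were set side by side at 6386 pairs of overlapping members. Age went with cohort in both sexes, so likeness between the sexes does not separate age from cohort. Across these pairs Spearman's rho was 0.47 and Pearson's r 0.50, a description over bins that share position and base composition between the sexes. Over all 32465 autosomal pairs the values were 0.42 and 0.45. Of the member pairs, 147 were higher by over 0.5 at 8 weeks in both sexes, 16 were lower in both and 0 differed in opposite directions; over all pairs the numbers were 599, 85 and 3. The 147 places were 2.30% of the member pairs, and the 599 were 1.85% of all pairs. Near olfactory receptors 17 of 392 member pairs were higher in both sexes (4.34%), near zinc finger genes 15 of 178 (8.43%), near vomeronasal type 1 receptors 8 of 110 (7.27%), near predicted genes 23 of 960 (2.40%), near cytochrome P450 genes 1 of 63 (1.59%) and near genes of no listed family 73 of 4198 (1.74%). The highest, picked out after the values were seen, were at Zfp1006 (1.04 in females and 1.48 in males), Sult3a1 (0.95 and 1.21; chr10:33835794-33836294, 100% masked), Bet1, a SNARE protein of the early secretory pathway (0.95 and 1.24; chr6:4092134-4092634, 100% masked), and Gm7072 (0.91 and 1.02). The places lower in both sexes included Tfam, the mitochondrial transcription factor A (-0.68 and -0.745; chr10:71222370-71222870), Or6c6, an olfactory receptor whose bin is 98.7% masked (-0.62 and -0.92; chr10:129358804-129359193), Bcl6, a transcriptional repressor (-0.62 and -0.93; chr16:24032706-24033206), and a second bin near Slco1b2 (-0.56 and -0.73; chr6:141600884-141601176).

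**Figure D5:**
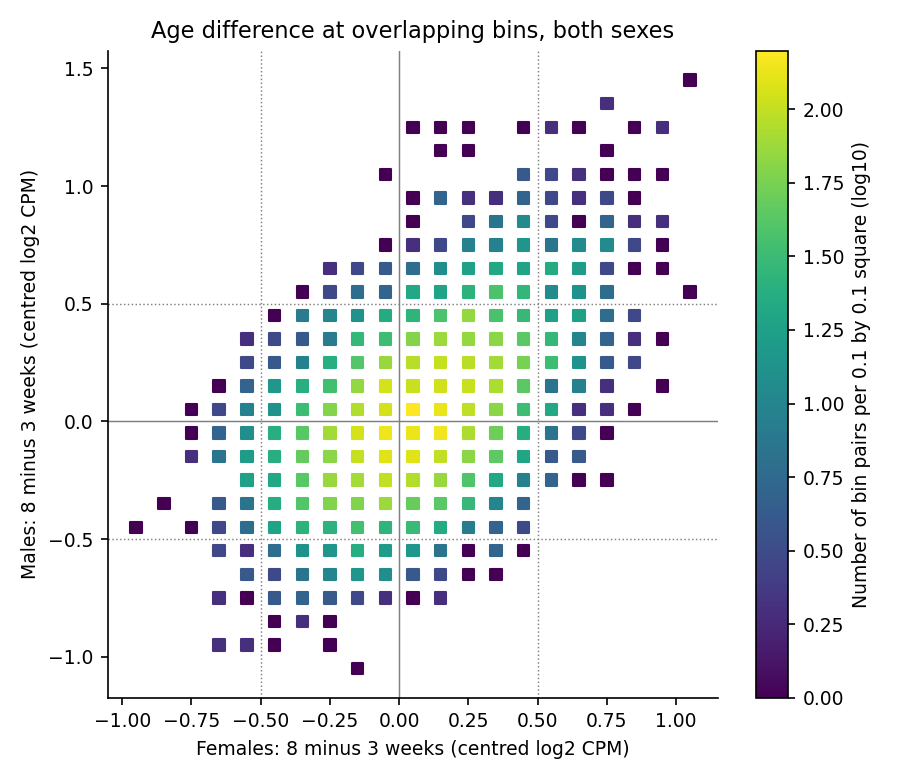
Each square counts pairs of overlapping intergenic bins within 50 kb of a TSS by their centred age difference in females (x axis, log2 CPM) and males (y axis, log2 CPM), with colour for the log10 number of the 6386 pairs and dotted lines at the limit of 0.5. The upper right corner holds 147 pairs and the lower left corner 16, and the corners of opposite direction hold 0.

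The sexes were compared at bins that overlap by at least 50% of each, after centring on all autosomal pairs. At 3 weeks, 1 of 11316 members was higher by over 1 in females and 3 were higher in males, where 0.00887% and 0.0106% of all 56395 pairs were. At 8 weeks, 6 of 9448 members were higher in females and 9 in males, where 0.0184% and 0.0634% of all 48931 pairs were. Most of these calls ended when the bins had to overlap by at least 80%, with 0 and 0 members at 3 weeks and 0 and 4 at 8 weeks, so the bins beyond 1 named below for females, and for males at 3 weeks, rest on the looser overlap. The counts also rest on the centring, as the closing section shows. Without it the larger count at 3 weeks was that of females, the reverse of the centred counts, and at 8 weeks it stayed with males. At a limit of 0.5, 258 members were higher in females at 3 weeks (2.28%; 2.42% of all pairs) and 271 in males (2.39%; 2.16%). At 8 weeks 198 were higher in females (2.10%; 2.31%) and 284 in males (3.01%; 2.98%). These pairs rarely have the same coordinates: 122 of the 56395 pairs at 3 weeks and 114 of the 48931 at 8 weeks did. Among the 25 and 27 members with the same coordinates the centred difference lay between -0.31 and 0.35 at 3 weeks and between -0.55 and 0.34 at 8 weeks. These are too few to read the absence of calls beyond 1 among them. The difference went with the ratio of the lengths of both bins (rho 0.11 and 0.15 across members), and its part in the single values was not tested.

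Among members with a mean level above the median of the pairs, the highest values of females minus males at 3 weeks were at Spin1, a reader of methylated histones (chr13:51076189-51076689; 1.02), Foxa1 (0.99) and Obox5, an oocyte homeobox gene (chr7:15702492-15702992; 0.91). Spin1 had 3.21 log2 CPM in females and 1.87 in males. The lowest values at 3 weeks, higher in males, were at Mbd1, a methyl-CpG binding protein (-1.32), Vmn1r66 (chr7:10247178-10247678; -1.10) and Setdb1, an H3K9 methyltransferase (chr3:95376628-95376957; -1.01). At 8 weeks the values at the ends were at Or10h5 (chr17:33232206-33232706, 95.2% masked; 1.48, with 4.39 in females and 3.01 in males), Tmem92 (chr11:94745438-94745938; 1.34) and Zfp369 (chr13:65267056-65267556; 1.24) on the female side. On the male side they were at Filip1 (chr9:80035142-80035492; -1.21), Or13c7b (chr4:43804239-43804551; -1.19) and Mup21 (chr4:62165893-62166323; -1.14, with 3.49 in females and 4.72 in males). Near Mup genes 1 of 27 members was higher by over 0.5 in females and 3 in males at 8 weeks, where 2.31% and 2.98% of all pairs were.

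The last comparison asked whether MO livers differed from controls at these bins. For each sex the mean MO level over both ages was derived from the linear averages of the tables of 3 and 8 weeks and of the control table of both ages, and set against the latter. The control table enters both sides of this difference with opposite signs, the same tables enter the age difference, and the 3 tables were normalized separately. The median over all autosomal bins (-0.251 in females, 0.442 in males) was then removed. The sum takes the averages to be on a common scale, which was not shown, and removing a median does not undo unequal scales within it. With unequal scales, a bin that differed with age can get a value other than 0 without any MO difference. Of 12376 members in females 0 were beyond 1 in either direction, where 0% of all 62457 bins were higher and 0.0048% lower. Of 12026 members in males 0 were beyond 1, as were 0% of all 60288 bins in either direction. These counts rest on the centring: without it some members of females were lower and some of males higher by over 1, as the closing section shows. At a limit of 0.5, 199 members of females were higher (1.61%; 1.59% of all bins) and 307 lower (2.48%; 2.9%), and in males 78 were higher (0.649%; 0.675%) and 96 lower (0.798%; 0.833%). These shares were near those of all bins.

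Among members with a mean level above the median of the pairs, the highest values of MO minus control in females were at Ccnh, the cyclin of the CDK-activating kinase (chr13:85184647-85185147; 0.94), Fras1, a basement membrane protein (chr5:96331082-96331582; 0.73), and Ctxnd1 (chr7:84497308-84497808; 0.71). The lowest were at Col6a2, a collagen VI chain (chr10:76634794-76635294; -0.84), Eno1, the glycolytic enzyme enolase 1 (chr4:150250791-150251242; -0.80), and Ostc (chr3:130683944-130684370; -0.79). In males the highest were at Abl2, a tyrosine kinase (chr1:156532365-156532865; 0.73), 9030624G23Rik (chr12:24129736-24130236; 0.68) and Ablim1 (chr19:57026400-57026900; 0.65). The lowest in males were at Ryr3, a calcium release channel (chr2:113227759-113228259; -0.81), Six3, a homeobox gene of the forebrain (chr17:85637189-85637571; -0.74), and 3300005D01Rik (chr17:5763635-5764135; -0.70). Members over 90% masked had a median of 0.08 (0.06 to 0.09) in females and 0.07 (0.06 to 0.09) in males, and members under 10% masked -0.03 (-0.03 to -0.01) and -0.04 (-0.05 to -0.03). Other autosomal bins over 90% masked had 0.08 and 0.07, and those under 10% masked had -0.04 and -0.03. Near olfactory receptors the median was 0.08 (0.05 to 0.11) in females and 0.06 (0.04 to 0.08) in males.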

How the data were processed

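H3K9me3 ChIP-seq of liver was read from 6 tables: 1 table per sex for the controls of both ages, and 1 per sex and age that pools MO and control livers. As the study's methods state, the authors used BWA for alignment (mm10/GRCm38 in the submitters' processing notes) and MACS2 for broad peaks, removed blacklisted regions, kept peaks shared by replicates, merged them by sex, cut long peaks into bins, counted reads with featureCounts, compared groups with edgeR and annotated bins with ChIPseeker. The deposited average CPM of a bin is a log2 value over the 8 libraries of its table. The deposited columns of the authors' comparisons (log2 fold changes, p-values and false discovery rates) were not used. Each table lists 1 bin per peak; how it was chosen is not given in the sources used here.

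The members and lists were chosen with earlier results of these data known. Shares have exact binomial and medians order-statistic intervals. Bins were paired by coordinates or by an overlap of at least 50%, and differences were centred on all autosomal pairs; over 1 log2 unit was called. Named bins were the 3 highest members of each table, the highest of each family with 5 or more members in an age table, and the 3 highest and 3 lowest members of each difference with a mean level above the median of the pairs, at most 1 per gene; 1 of these bins is not reported here. GC, CpG and soft-masked bases came from RefSeq GRCm38.p6, in which 0 bins lay past a chromosome end. Functions were tested on simulated data. There the MO arithmetic was tested on values of a common scale, unlike the separately normalized averages used here. Analyses used Python 3.11.15, pandas 2.3.3, numpy 2.4.6, scipy 1.17.1, bedtools 2.31.1 and minimap2 2.31. The input libraries were not used here.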

Additional observations from a re-analysis of the deposited data

How the results depend on the processing

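No paired analysis was possible because the tables hold no value per library, and for that reason no library could be left out. Counts beyond 1 depended on the limit, on centring and on the overlap asked of paired bins. With a limit of 0.5, members higher and lower numbered 477 and 440 (age, females), 715 and 555 (age, males), 258 and 271 (sex, 3 weeks), 198 and 284 (sex, 8 weeks), 199 and 307 (MO, females) and 78 and 96 (MO, males). Without centring, the counts were 44 higher in females and 1392 higher and 0 lower in males for age, 52 and 1 for sex at 3 weeks, 3 and 22 at 8 weeks, 23 lower for MO in females and 27 higher for MO in males. On single-bin peaks, 0 members of females and 10 of males were higher and 0 of males lower with age, 0 and 0 differed by sex at 3 weeks, and 0 and 3 at 8 weeks. With the same coordinates the sex counts were 0 and 0 at both ages, but over only 25 and 27 members, too few to show a dependence; with an overlap of at least 80% they were 0 and 0 at 3 weeks and 0 and 4 at 8 weeks. Members with a level above the median, and age pairs by overlap, gave counts within 1.5 times of the first.

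The share of members in control females was 14.2% and 25.3% with limits of 30 kb and 100 kb, 47.5% when each nearest gene was counted once and 18.8% among bins above the median level; in control males it was 14.8%, 26.1%, 51.2% and 19.3%. Their median level was 2.64 and 2.10 log2 CPM (females, males) with 100 kb, 2.65 and 2.11 over nearest genes and 2.69 and 2.12 on single-bin peaks. The age difference of members over 90% masked was 0.22 and 0.21 among bins above the median level and 0.14 and 0.12 on single-bin peaks; both settings were chosen after seeing the data. Of 244 values computed under another setting, 171 moved and 73 did not, and the causes were not tested. Depth per library is unknown here, so no limit was computed from it.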
